A study of Mus musculus with 12 samples.

Results

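Collagen chain genes were followed across 4 culture conditions of cells grown from the mouse cochlea. The members were all rows of the expression table whose gene symbol is Col, a type number, the letter a and a chain number. In total 44 of 55487 rows matched, the pattern itself used no measured value, although it was proposed with earlier results of these data known, and all 44 gene identifiers carried the same symbol in the GENCODE M21 annotation. Of these, 39 reached 1 TPM (a transcript level that allows for gene length and library size) in at least 3 libraries and were tested, and 5 did not (Col6a4, Col10a1, Col13a1, Col17a1 and Col19a1, with 0.84 TPM as their highest value in any library).

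All cultures came from spiral ganglia of postnatal day 4 mice of both sexes, of mixed C57Bl6 and FVB/N background, with ganglia of several mice pooled for each dissociation. Sphere libraries were made from cells in suspension with EGF (20 ng/ml), bFGF (10 ng/ml), IGF (50 ng/ml) and heparan sulfate (50 ng/ml). SCDM libraries were made from spheres kept for 14 days on poly-L-ornithine and laminin (10 ng/ml) in DMEM/F12 with B27, N2 and the neurotrophins BDNF (50 ng/ml) and NT3 (50 ng/ml). The SCDM/FGF cultures received the same medium with added bFGF (100 ng/ml). The FIBCL cultures, also analysed at day 14, received a Neurobasal medium with B27, N2 and bFGF (100 ng/ml, with 50 ng/ml listed as well). To this were added Forskolin (20 µM), which raises cAMP, ISX9 (20 µM), which promotes neuronal differentiation, the BET bromodomain inhibitor I-BET (1 µM), the GSK3 inhibitor CHIR99021 (10 µM) and the cytokine LIF (1000 U/ml). FIBCL listed neither BDNF nor NT3, so base medium, neurotrophins, bFGF, LIF and small molecules differed together between FIBCL and SCDM and cannot be told apart. Each group held 3 libraries labelled as biological replicates of unsorted cultures, and the study describes mesenchyme-like cells beside glia in the spheres. The labels do not tie the libraries to separate litters, so p-values measure the spread between these libraries.

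Collagens are trimers of chains with a repeated glycine motif, secreted as procollagens after hydroxylation and folding in the endoplasmic reticulum. Fibril-forming types I, II, III, V and XI build tensile fibrils, fibril-associated types IX, XII, XIV and XVI coat them, type IV builds the sheet of basement membranes, and type VI forms beaded filaments near cells. In peripheral nerve, Schwann cells are surrounded by a type IV basement membrane and endoneurial fibroblasts deposit types I and III. In the cochlea, types II, IX and XI are matrix proteins of the tectorial membrane, and mutations in their chains or in the type IV alpha 3 to alpha 5 chains cause syndromes with hearing loss.

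Marker lists described what the libraries contained. The summed scaled TPM of 10 neuronal markers lay between 17.1 and 27.6 in the 9 Sphere, SCDM and SCDM/FGF libraries and between 498 and 518 in FIBCL, although the labels call all 3 differentiated groups induced neurons. The 10 Schwann and satellite glial markers summed to 603 to 628 in Sphere, 339 to 390 in SCDM, 320 to 342 in SCDM/FGF and 58.1 to 60.2 in FIBCL. The 15 fibroblast and mesenchyme markers summed to 2169 to 2230 in Sphere, 3662 to 3835 in SCDM, 2858 to 2920 in SCDM/FGF and 292 to 311 in FIBCL. The 7 macrophage markers summed to 90.0 to 108 in Sphere, 1212 to 1328 in SCDM, 1326 to 1455 in SCDM/FGF and 158 to 183 in FIBCL. The FIBCL sum was mostly Cd68 (165 ± 12.3), while C1qa was at 0.385 ± 0.183 there against 22.7 ± 3.13 in Sphere. Of the 7 markers 1 was called higher and 4 lower in FIBCL than in Sphere (12.5% and 15.5% of all tested genes). The fibroblast list had the same lowest and highest group in its sum as the collagen chains. Its SCDM sum was mostly Postn (1724 ± 70.6) and Ogn (642 ± 44.4), which were at 239 ± 7.17 and 10.2 ± 0.878 in Sphere. Of the 15 markers, 5 were called higher and 2 lower in SCDM than in Sphere (6.94% and 5.46% of all tested genes). The median difference of the list was -0.06. The sum of the chondrocyte list given below had the same lowest and highest group. The sum of the 6 mural (vessel wall) markers had these groups too, at 97.6 to 128 in SCDM and 7.35 to 8.01 in FIBCL. Of these 6, 1 was called higher, 1 lower and 4 not called in SCDM against Sphere (6.94% higher and 5.46% lower of all tested genes). In FIBCL against SCDM, 3 were called lower and 1 higher (16.2% and 13.2% of all tested genes). The neuronal, glial and macrophage lists had another lowest or highest group. The part of any of these cell types in the collagen results was not tested. In bulk cultures, fewer cells of a type and less RNA per cell cannot be told apart.

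Collagen transcripts were a large part of the SCDM libraries and a small part of the FIBCL libraries. All 44 members together made up 1.79% ± 0.0774 (SD, n = 3) of listed TPM in SCDM, 0.876% ± 0.0399 in Sphere, 0.699% ± 0.0178 in SCDM/FGF and 0.0464% ± 0.00312 in FIBCL. The 4 groups did not overlap in this share. In SCDM, 22 members had a group mean of at least 100 scaled TPM (TPM after a common rescaling of the libraries), against 16 in Sphere, 12 in SCDM/FGF and 0 in FIBCL. At a minimum of 10 scaled TPM the numbers were 27, 28, 25 and 13.

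**Figure D1:**
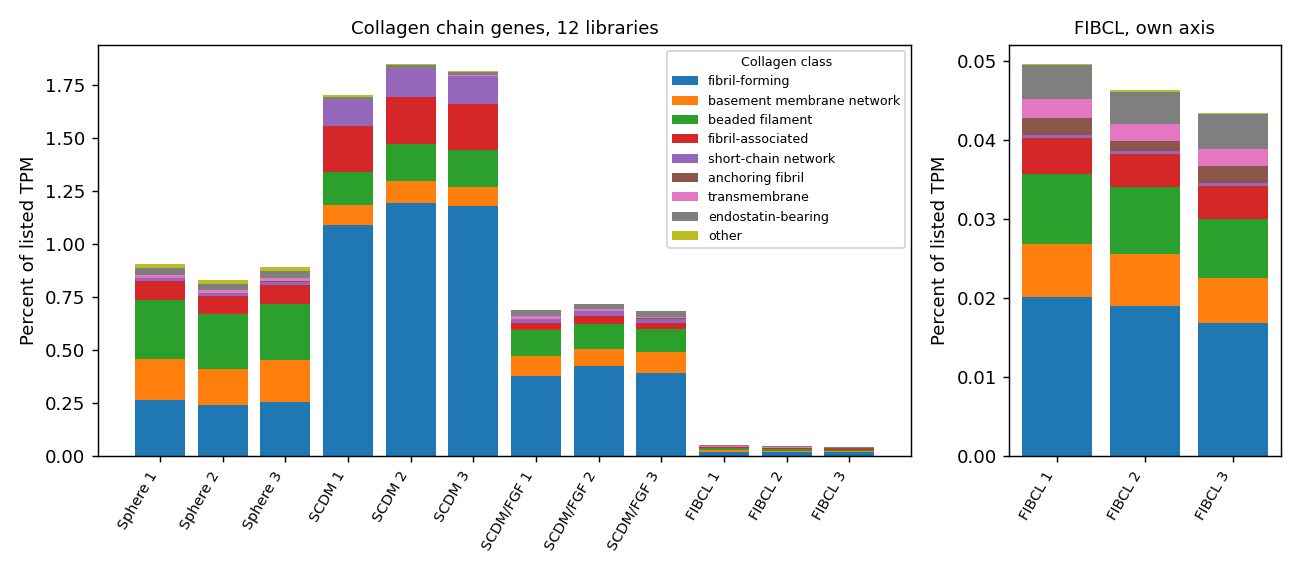
Share of listed TPM (percent, stacked bars) taken by the collagen chain genes in each of the 12 libraries, coloured by collagen class, with FIBCL drawn again on its own axis at the right. SCDM bars reach 1.70 to 1.85%, Sphere bars 0.831 to 0.908%, SCDM/FGF bars 0.686 to 0.719% and FIBCL bars 0.0434 to 0.0496%.

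The chains that led the collagen total changed with the medium. In Sphere the 5 highest members were Col6a1, Col4a1, Col6a2, Col3a1 and Col4a2, that is, beaded filament and basement membrane chains with 1 fibril chain, and together they held 52.6% ± 0.185 of collagen TPM. In SCDM the 5 were Col2a1, Col1a2, Col3a1, Col8a1 and Col6a1, with 64.3% ± 0.535, and Col2a1 alone held 25.7 to 26.2%. In SCDM/FGF they were Col3a1, Col1a2, Col6a1, Col4a1 and Col4a2, with 69.7% ± 1.39, and Col3a1 alone held 33.9%. In FIBCL they were Col5a1, Col6a1, Col5a2, Col18a1 and Col4a2, with 53.7% ± 0.715, at levels of 34.6 to 68.5 scaled TPM.

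**Figure D2:**
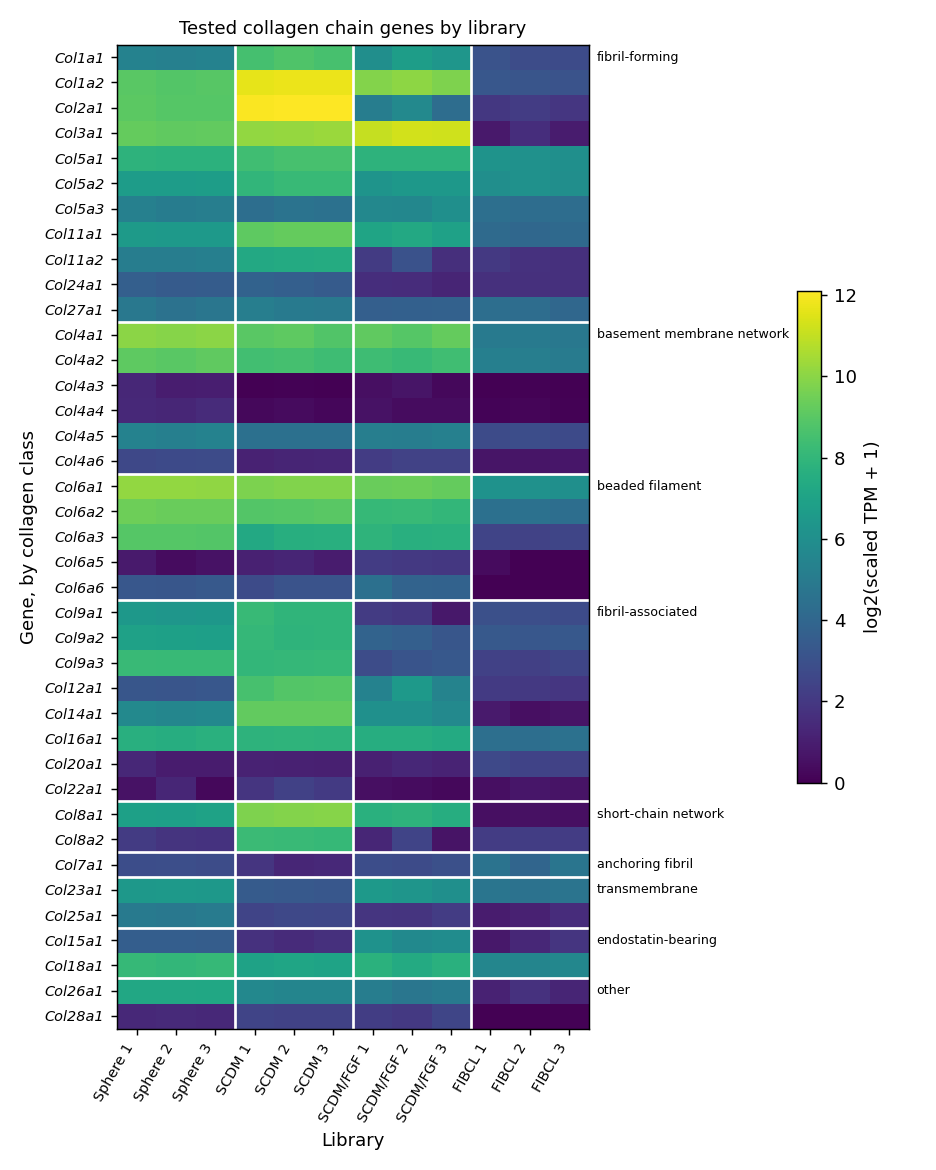
Level of the 39 tested collagen chain genes as log2(scaled TPM + 1) (colour) in the 12 libraries (columns), ordered by collagen class (white lines). The brightest cells are Col2a1 and Col1a2 in SCDM and Col3a1 in SCDM/FGF. The 3 FIBCL columns are the darkest for most chains of types I, III, IV and VI and for Col8a1.

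Differences were tested on log2(scaled TPM + 1) with limma, and a gene was called at an adjusted p under 0.05 with a difference of at least 1 on that log2 scale, which understates changes of low genes. In FIBCL against SCDM, 3 of the 39 tested members were called higher and 29 lower, where 13.2% of all 16016 tested genes were called higher and 16.2% lower. Against SCDM/FGF the counts were 3 higher and 25 lower (12.0% and 15.8% of all genes), and against Sphere 2 higher and 31 lower (12.5% and 15.5%). The median difference of the members was -3.29, -2.04 and -2.52 in these comparisons, beside -0.07, -0.05 and -0.06 over all tested genes. Without the rescaling of libraries, the members called were 2 higher and 31 lower against SCDM, 2 and 25 against SCDM/FGF, and 2 and 33 against Sphere. The shares of all genes then became 9.30% higher and 23.3% lower, 8.80% and 20.6%, and 7.87% and 26.9%, and the median over all genes moved to -0.40, -0.31 and -0.51. The 3 comparisons share the FIBCL libraries.

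Among the media without small molecules the members moved in both directions. In SCDM against Sphere, 14 members were called higher and 10 lower (6.94% and 5.46% of all genes), with a median difference of 0.11. In SCDM/FGF against Sphere, 5 were called higher and 10 lower (7.39% and 4.73%), with a median of -0.33, and without rescaling 4 and 15 (6.12% and 6.93%). In SCDM/FGF against SCDM, which differ only by the added bFGF, 6 were called higher and 16 lower (5.73% and 4.04%), with a median of -0.60. By class, 7 of 11 fibril-forming and 5 of 8 tested fibril-associated chains were higher in SCDM than in Sphere and none of either class lower. In contrast, 3 of 6 type IV chains, the tested anchoring fibril chain, both tested transmembrane chains and both endostatin-bearing chains were lower.

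**Figure D3:**
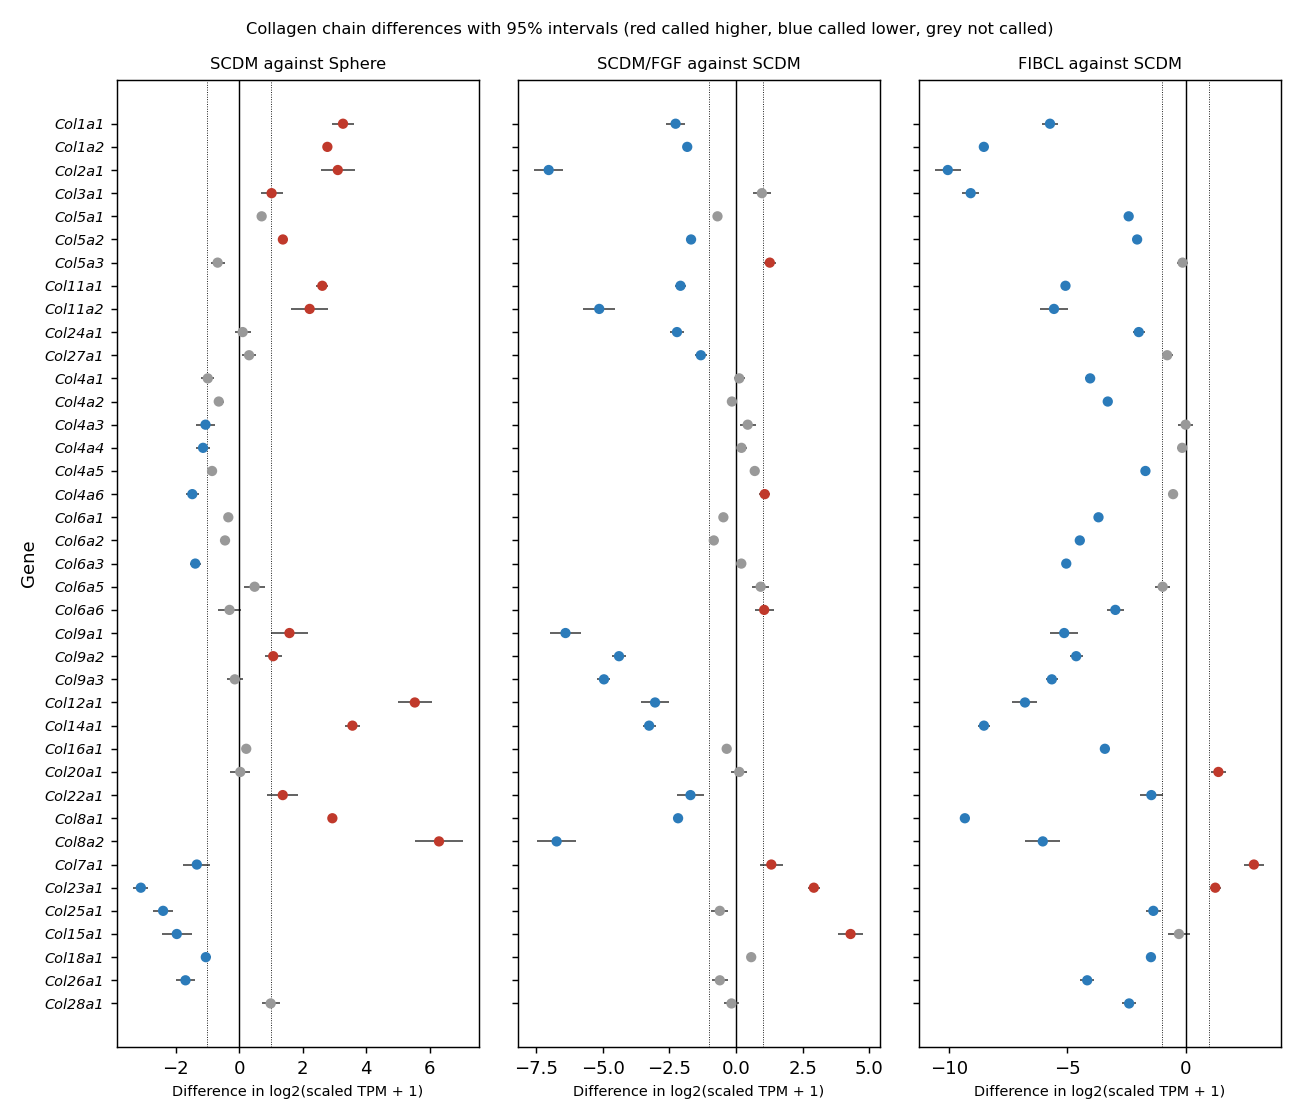
Difference in log2(scaled TPM + 1) with its 95% interval (points and bars) for the 39 tested collagen chain genes in SCDM against Sphere, SCDM/FGF against SCDM and FIBCL against SCDM, each panel on its own axis. Red points were called higher (14, 6 and 3 genes), blue points lower (10, 16 and 29) and grey points were not called, and dotted lines mark a difference of 1.

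The type I chains, which together form the main fibril of connective tissue, were highest in SCDM. Col1a2, encoding the alpha 2 chain, had 3220, 3481 and 3455 scaled TPM in the SCDM libraries, 925, 1065 and 882 in SCDM/FGF, 509, 473 and 494 in Sphere and 8.61, 8.19 and 7.61 in FIBCL. The 4 groups did not overlap. The difference in Col1a2 was -8.53 on the log2 scale in FIBCL against SCDM (SE 0.0686, limma, adjusted p = 8.78e-15) and 2.78 in SCDM against Sphere (SE 0.0686, limma, adjusted p = 2.1e-10). In SCDM/FGF against SCDM it was -1.82 (limma, adjusted p = 2.8e-09). The difference between SCDM/FGF and Sphere, 0.96, was below the threshold, and it passed at 1.01 without SCDM/FGF replicate 3.

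Col1a1, encoding the alpha 1 chain of type I, followed the same order of groups at lower levels. It had 368, 437 and 379 scaled TPM in SCDM, 62.7, 107 and 80.3 in SCDM/FGF, 40.5, 38.1 and 40.9 in Sphere and 7.60, 5.99 and 5.73 in FIBCL, again with no overlap. The difference was -5.74 in FIBCL against SCDM (SE 0.16, limma, adjusted p = 5.41e-11) and 3.27 in SCDM against Sphere (SE 0.16, limma, adjusted p = 2.19e-08). In SCDM/FGF against Sphere the difference of 1.01 was called (limma, adjusted p = 0.000284), but fell below the threshold without SCDM/FGF replicate 2 (0.82), without Sphere replicate 2 (0.98) and without rescaling (0.79).

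Col3a1, the only chain of type III, was the highest member in SCDM/FGF. Its levels were 2113, 2457 and 2426 scaled TPM in SCDM/FGF, 1123, 1185 and 1244 in SCDM, 599, 559 and 587 in Sphere and 0.766, 2.02 and 0.920 in FIBCL. FIBCL differed by -10.07 on the log2 scale from SCDM/FGF (SE 0.158, limma, adjusted p = 6.97e-13) and by -9.09 from SCDM (limma, adjusted p = 1.47e-12). The difference between SCDM/FGF and SCDM was 0.98 (95% interval 0.63 to 1.32), just under the threshold of 1, and it passed without SCDM replicate 3 (1.01) or SCDM/FGF replicate 1 (1.04). In SCDM against Sphere the difference of 1.02 was called (limma, adjusted p = 0.000227) and was lost without SCDM replicate 3 (0.99), without Sphere replicate 2 (1.00) and without rescaling (0.88).

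The type V chains, which set fibril diameter in mixed fibrils with type I, included 2 of the 3 highest members in FIBCL, with Col6a1 between them. Col5a1 was at 73.8, 67.7 and 64.1 scaled TPM in FIBCL, against 339 to 389 in SCDM, 227 to 228 in SCDM/FGF and 222 to 229 in Sphere. All FIBCL libraries were below all others, with a difference of -2.41 from SCDM (SE 0.0577, limma, adjusted p = 1.65e-11) and -1.72 from SCDM/FGF (limma, adjusted p = 2.53e-10). Col5a2 was at 62.7, 67.8 and 63.2 in FIBCL and at 77.2, 88.2 and 86.4 in SCDM/FGF. This difference of -0.37 (95% interval -0.51 to -0.23) did not reach the threshold, whereas SCDM, at 248, 283 and 283, differed from it by more, with -2.05 for FIBCL against SCDM (limma, adjusted p = 1.27e-10). Against Sphere, the Col5a2 difference in FIBCL was -0.67, and -1.21 without rescaling.

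Col5a3, the third type V chain, had the opposite response to bFGF. It was at 50.1, 48.3 and 64.3 scaled TPM in SCDM/FGF and at 19.9, 23.4 and 21.9 in SCDM, with no overlap. The difference was 1.27 (SE 0.0996, limma, adjusted p = 1.18e-06). In FIBCL it was at 19.2 to 20.8, with a difference from SCDM of -0.13 (95% interval -0.35 to 0.09), which is among the smallest of the tested members. It was not called in FIBCL against Sphere (-0.81), and reached -1.33 there without rescaling.

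Chains of the cartilage-type fibril, types II, IX and XI, were among the members with the largest differences between SCDM/FGF and SCDM. Col2a1, the chain of type II, had 4182, 4359 and 4416 scaled TPM in SCDM, 528, 487 and 485 in Sphere, 34.2, 50.7 and 19.3 in SCDM/FGF and 2.91, 3.49 and 2.79 in FIBCL. The 4 groups were apart from each other. The Col2a1 difference was -7.02 on the log2 scale in SCDM/FGF against SCDM (SE 0.246, limma, adjusted p = 1.66e-09) and -10.06 in FIBCL against SCDM (SE 0.246, limma, adjusted p = 1.94e-11). The difference of FIBCL from SCDM/FGF, -3.04, was called as well (limma, adjusted p = 4.93e-07).

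The 3 type IX chains, which decorate type II fibrils, were called lower in SCDM/FGF than in SCDM. Col9a1 had 282, 245 and 244 scaled TPM in SCDM and 3.26, 2.95 and 0.722 in SCDM/FGF, a difference of -6.39 (SE 0.264, limma, adjusted p = 5.92e-09). Col9a2 had 271, 238 and 238 in SCDM and 13.2, 11.8 and 8.40 in SCDM/FGF, a difference of -4.38 (SE 0.122, limma, adjusted p = 3.17e-10). Col9a3 had 255, 264 and 274 in SCDM and 6.06, 7.90 and 9.12 in SCDM/FGF, a difference of -4.95 (SE 0.111, limma, adjusted p = 8.15e-11). For each of the 3 chains every SCDM library was above every SCDM/FGF library. In Sphere, before differentiation, the levels were 84.7 ± 2.94, 118 ± 4.05 and 290 ± 6.18. Col9a1 and Col9a2 were called higher in SCDM than in Sphere (1.59 and 1.07), the second only with rescaling (0.93 without), and Col9a3 was not called (-0.13, 95% interval -0.38 to 0.11).

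FIBCL and SCDM/FGF, the 2 groups with 100 ng/ml bFGF, were compared directly for these chains. Col9a2 was at 8.76 to 9.32 scaled TPM in FIBCL, with a difference from SCDM/FGF of -0.25 (95% interval -0.52 to 0.02), and Col9a3 was at 3.85 to 4.81, with a difference of -0.71 (-0.96 to -0.47). Col9a1 was at 5.70 to 6.68 in FIBCL and was called higher than in SCDM/FGF by 1.25 (SE 0.264, limma, adjusted p = 0.00126). That call was lost without SCDM/FGF replicate 3, the library with 0.722 (0.83), and without rescaling (0.98).

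Type XI, the core of cartilage-type fibrils, showed 2 patterns. Col11a2 had 155, 167 and 175 scaled TPM in SCDM, 33.8, 34.2 and 36.2 in Sphere, 3.36, 7.21 and 2.05 in SCDM/FGF and 3.06, 2.32 and 2.22 in FIBCL. The last 2 groups overlapped, with a difference of -0.44 (95% interval -1.04 to 0.15), while SCDM/FGF was lower than SCDM, with a difference of -5.12 (SE 0.268, limma, adjusted p = 3.98e-08). Col11a1 had 547, 601 and 607 in SCDM, 135, 159 and 121 in SCDM/FGF, 91.3 to 97.2 in Sphere and 15.3 to 17.3 in FIBCL. It was lower with bFGF, with a difference of -2.08 (SE 0.0857, limma, adjusted p = 5.81e-09), and in SCDM/FGF it differed from Sphere by 0.54, below the threshold.

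The minor fibril-forming chains were also lower with bFGF. Col24a1 was at 10.3 to 13.1 scaled TPM in SCDM and at 1.35 to 2.04 in SCDM/FGF, a difference of -2.21 (limma, adjusted p = 3.98e-08). Col27a1, expressed in cartilage, was at 29.2 to 35.5 in SCDM and 11.8 to 12.5 in SCDM/FGF, a difference of -1.31 (limma, adjusted p = 1.37e-06). In FIBCL, Col27a1 was at 15.4 to 19.5, which is above SCDM/FGF in all 3 libraries but by only 0.53 (95% interval 0.30 to 0.76). Its difference of -0.78 from SCDM was not called and became -1.16 without rescaling. SCDM/FGF against Sphere was just short of the threshold in the reported fit, and passed with -1.08 without Sphere replicate 2, -1.02 without SCDM/FGF replicate 3 and -1.22 without rescaling.

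Some markers of cartilage cells were, like Col2a1, highest in SCDM. Acan, the core protein of aggrecan, was at 51.6 ± 1.45 scaled TPM in SCDM, 7.03 ± 0.283 in Sphere, 3.65 ± 0.133 in FIBCL and 0.235 ± 0.390 in SCDM/FGF. Cnmd, encoding chondromodulin, was at 39.8 ± 7.83 in SCDM and at or below 2.27 in the other group means. Sox9, a regulator of Col2a1 that is also active in glia, was at 46.0 ± 2.23 in SCDM/FGF against 56.0 ± 0.748 in SCDM, a difference of -0.28 that was not called. Over the 7 chondrocyte markers, 4 were tested. Of these, 0 were higher and 2 lower in SCDM/FGF than in SCDM (5.73% and 4.04% of all genes). All 4 were lower in FIBCL than in SCDM (16.2%), and 1 was higher and 1 lower in FIBCL than in SCDM/FGF (12.0% and 15.8%). The list summed to 146 to 158 scaled TPM in SCDM, 76.4 to 77.5 in Sphere, 47.0 to 49.6 in SCDM/FGF and 14.5 to 15.3 in FIBCL. Outside SCDM these sums were mostly Sox9. The defining cartilage genes Matn1, Matn3 and Comp stayed below 1 scaled TPM in every group mean. The part of these cells in the collagen results was not tested.

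**Figure D4:**
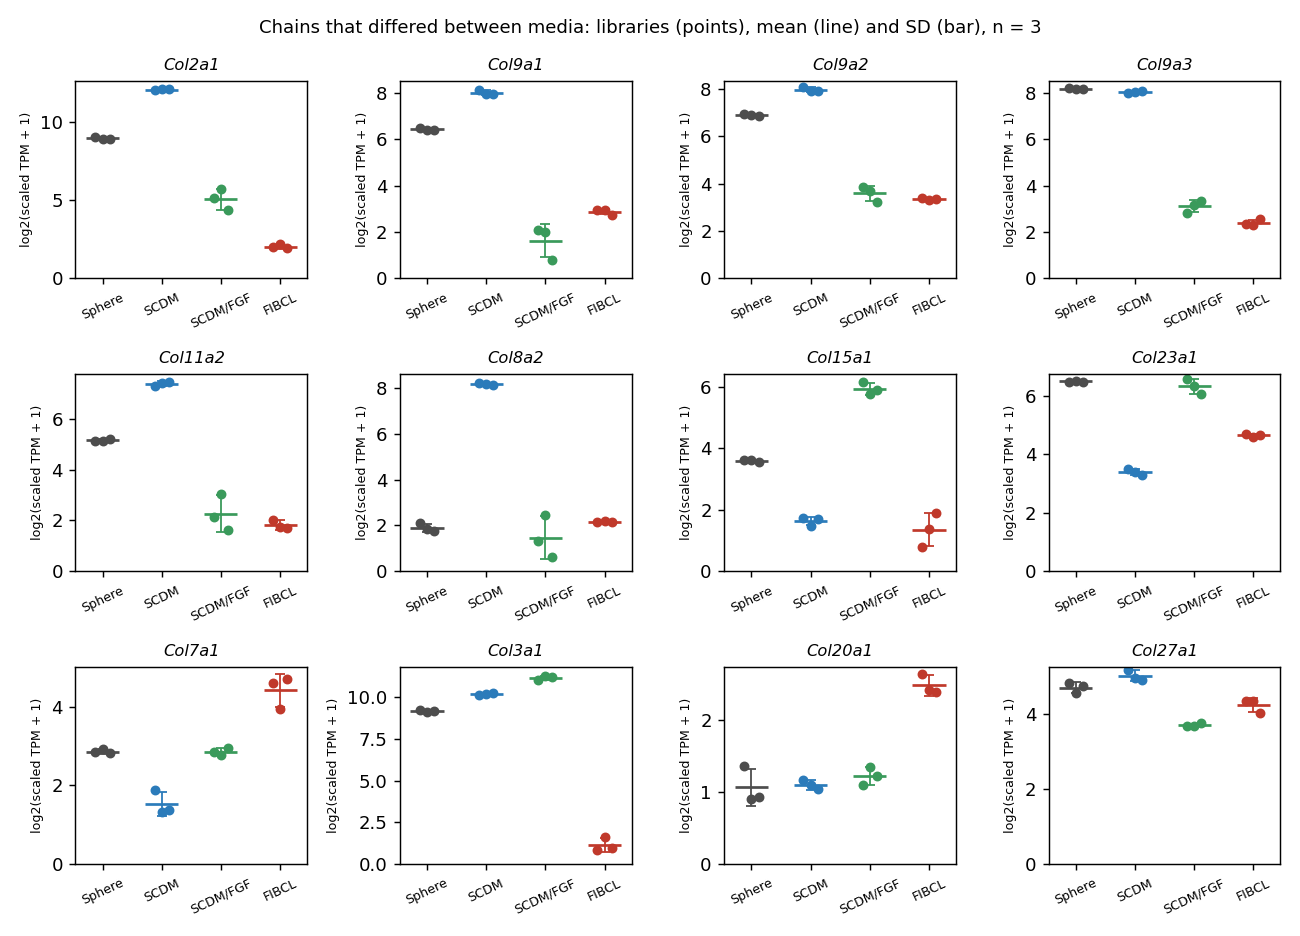
Level as log2(scaled TPM + 1) of 12 collagen chain genes in each library (points) by group, with the group mean (line) and SD (bar), n = 3, each panel on its own axis from 0. The type II, IX and XI chains and Col8a2 are high in SCDM and low in SCDM/FGF, Col15a1 and Col23a1 show the reverse, and Col7a1 and Col20a1 are highest in FIBCL.

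A short-chain network chain showed the sharpest contrast between SCDM and the other 3 groups. Col8a2, which with Col8a1 builds the lattice of type VIII in subendothelial and corneal matrix, had 299.9, 295 and 279 scaled TPM in SCDM. It had 3.29, 2.55 and 2.38 in Sphere, 1.48, 4.51 and 0.549 in SCDM/FGF and 3.37, 3.53 and 3.39 in FIBCL, which overlap or lie close together. The difference was 6.30 in SCDM against Sphere (SE 0.336, limma, adjusted p = 4.46e-08), the largest positive difference of a member in that comparison, and -6.72 in SCDM/FGF against SCDM (SE 0.336, limma, adjusted p = 2.87e-08). FIBCL against SCDM/FGF gave 0.68 (95% interval -0.06 to 1.42) and was called only without SCDM/FGF replicate 2 (1.18).

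Col8a1 differed from its partner chain in having an intermediate level with bFGF and almost none in FIBCL. It was at 871, 941 and 949 scaled TPM in SCDM, 202, 224 and 187 in SCDM/FGF, 118, 115 and 124 in Sphere and 0.407, 0.456 and 0.407 in FIBCL. No groups overlapped. The difference of FIBCL was -9.34 from SCDM (SE 0.0638, limma, adjusted p = 2.83e-15) and -7.17 from SCDM/FGF (limma, adjusted p = 1.4e-14).

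The fibril-associated chains Col12a1 and Col14a1, which bind the surface of type I fibrils in tendon and skin, were strongly raised in SCDM. Col12a1 went from 8.54, 8.17 and 8.90 scaled TPM in Sphere to 381, 461 and 486 in SCDM, a difference of 5.53 (SE 0.24, limma, adjusted p = 9.07e-09). In SCDM/FGF it was at 40.0, 89.4 and 41.6, still above Sphere (95% interval of the difference 1.98 to 3.03, limma, adjusted p = 5.56e-06). Col14a1 went from 50.8, 45.5 and 49.1 in Sphere to 586, 590 and 580 in SCDM, a difference of 3.57 (SE 0.11, limma, adjusted p = 7.39e-10). With bFGF, Col14a1 was at 65.9, 66.1 and 50.8, within 0.32 of Sphere (95% interval 0.07 to 0.56). Both chains had their lowest levels in FIBCL, with 2.73 to 3.12 for Col12a1 and 0.406 to 0.826 for Col14a1.

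Col16a1, a fibril-associated chain found near basement membranes, was nearly level among the media without small molecules. It was at 187 to 203 scaled TPM in Sphere, 225 to 235 in SCDM and 168 to 187 in SCDM/FGF, with differences of at most 0.34 in size. In FIBCL it was at 19.4 to 21.7, a difference of -3.42 from SCDM (SE 0.0536, limma, adjusted p = 6.93e-13).

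All 6 type IV chains had their highest mean in Sphere, and with the exception of Col4a6 they were not called between SCDM and SCDM/FGF. Col4a1 and Col4a2, the chains of the ubiquitous type IV trimer, lie head to head on chromosome 8. In the RefSeq table (build GRCm38.p6) their first exons overlap by 22 bases at chr8:11312805-11312826, and the stretch is shown on the plus strand, with a GC box in capitals, as the point from which the pair is read in both directions.
Col4a1 and Col4a2 overlap: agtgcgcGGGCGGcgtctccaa
The library kit is not described as keeping strand, so reads from these bases cannot be given to either gene.

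Both genes kept high levels in every medium other than FIBCL. Col4a1 was at 1028, 953 and 1032 scaled TPM in Sphere, 519, 553 and 452 in SCDM, 568, 481 and 616 in SCDM/FGF and 30.8, 31.1 and 27.7 in FIBCL. The SCDM and SCDM/FGF libraries overlapped, and FIBCL differed from SCDM by -4.04 (SE 0.0946, limma, adjusted p = 1.42e-11). The difference between SCDM and Sphere was -0.99, just outside the call, and it passed without SCDM replicate 1, SCDM replicate 2 (-1.05) or Sphere replicate 2 (-1.02), and without rescaling (-1.13). Col4a2 was at 512 to 559 in Sphere, 328 to 371 in SCDM, 284 to 335 in SCDM/FGF and 32.2 to 35.9 in FIBCL, a difference of -3.29 between FIBCL and SCDM (SE 0.0712, limma, adjusted p = 8.26e-12).

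The other type IV chains are the ones linked to Alport syndrome and to smooth muscle basement membranes, and they were lower in level. Col4a5 was at 36.8 to 40.7 scaled TPM in Sphere, 21.2 to 21.4 in SCDM, 33.5 to 37.3 in SCDM/FGF and 5.52 to 6.27 in FIBCL, and the difference of FIBCL from SCDM was -1.70 (limma, adjusted p = 4.51e-10). Col4a6, its head-to-head neighbour on chromosome X, was at 5.54 ± 0.358 in Sphere, 3.99 ± 0.431 in SCDM/FGF, 1.36 ± 0.113 in SCDM and 0.628 ± 0.0293 in FIBCL. It was the type IV chain called higher with bFGF, by 1.08 (SE 0.095, limma, adjusted p = 3.12e-06). Col4a3 and Col4a4, which pair head to head on chromosome 1, were above 1 scaled TPM on average only in Sphere, at 1.17 ± 0.352 and 1.64 ± 0.156. Both were called lower in SCDM and FIBCL than in Sphere (-1.06 in each for Col4a3, and -1.13 and -1.28 for Col4a4). The Col4a3 calls were lost without Sphere replicate 1 (-0.93 in each), and with a pseudocount of 0.1 Col4a3 was called higher in SCDM/FGF than in SCDM (1.86).

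Type XV collagen, which like type XVIII is a basement membrane component that releases an endostatin-like fragment, was higher with bFGF. Col15a1 was at 70.3, 53.1 and 58.2 scaled TPM in SCDM/FGF, 11.2, 11.2 and 10.9 in Sphere, 2.32, 1.77 and 2.24 in SCDM and 0.742, 1.58 and 2.68 in FIBCL. SCDM/FGF lay above all other libraries, and SCDM and FIBCL overlapped. It was 4.30 higher in SCDM/FGF than in SCDM (SE 0.216, limma, adjusted p = 2.98e-08), the largest positive difference of a member with bFGF. In FIBCL, which also contains bFGF, it differed from SCDM/FGF by -4.59 (limma, adjusted p = 4.54e-09) and from SCDM by -0.29 (95% interval -0.76 to 0.19). Among endothelial markers, Emcn was at 249 ± 21.9 in SCDM/FGF, 96.5 ± 2.29 in Sphere and 37.7 ± 4.09 in SCDM and listed at 0 in all 3 FIBCL libraries. The 6 endothelial markers summed to 265 to 303 in SCDM/FGF, 106 to 109 in Sphere, 42.9 to 51.2 in SCDM and 13.1 to 13.7 in FIBCL, sums made up mostly of Emcn outside FIBCL. Of the 5 tested, 2 were called higher with bFGF and 1 lower (5.73% and 4.04% of all genes). Cdh5 was highest in SCDM/FGF as well (36.6 ± 2.21), whereas Tek was highest in SCDM (4.80 ± 0.412) and Kdr in FIBCL (10.1 ± 0.322). The part of these cells in the Col15a1 result was not tested.

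Col18a1 was less variable. It was at 260 to 273 scaled TPM in Sphere, 124 to 136 in SCDM, 170 to 208 in SCDM/FGF and 44.1 to 48.3 in FIBCL. The difference between SCDM/FGF and SCDM was 0.57 and was not called, and FIBCL differed from SCDM by -1.47 (SE 0.0719, limma, adjusted p = 5.83e-09).

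Sequence upstream of the transcription start was available from RefSeq (GRCm38.p6) for 35 of the 44 members, in 38 windows of 250 bases. The windows of Col9a1 and Col11a2 are shown as members that were much lower with bFGF, those of Col15a1, Col23a1 and Col7a1 as members that were higher, and that of Col3a1 as the chain that differed most between FIBCL and SCDM/FGF. For Col9a1 the more upstream of its 2 annotated starts was taken. None of these windows overlaps an annotated exon. They are chr1:24177360-24177609, chr17:34038888-34039137, chr4:47207762-47208011, chr11:51289670-51289919, chr9:108953336-108953585 and chr1:45311288-45311537 in the order printed, all on the plus strand and 5′ to 3′, with matches to the searched motifs in capitals.
Col9a1: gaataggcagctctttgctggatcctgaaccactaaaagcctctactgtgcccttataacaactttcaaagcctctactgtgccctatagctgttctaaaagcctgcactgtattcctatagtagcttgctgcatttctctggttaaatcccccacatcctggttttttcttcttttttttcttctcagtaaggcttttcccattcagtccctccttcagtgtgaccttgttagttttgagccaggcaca
Col11a2: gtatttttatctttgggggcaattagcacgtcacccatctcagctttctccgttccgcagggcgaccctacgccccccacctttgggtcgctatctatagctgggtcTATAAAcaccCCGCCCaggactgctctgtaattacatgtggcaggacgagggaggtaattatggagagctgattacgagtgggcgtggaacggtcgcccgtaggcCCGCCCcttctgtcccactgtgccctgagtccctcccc
Col15a1: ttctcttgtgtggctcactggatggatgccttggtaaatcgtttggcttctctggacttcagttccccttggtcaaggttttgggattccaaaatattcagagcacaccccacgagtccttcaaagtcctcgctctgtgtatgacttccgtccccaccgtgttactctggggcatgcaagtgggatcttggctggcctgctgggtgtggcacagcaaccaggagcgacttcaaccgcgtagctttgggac
Col23a1: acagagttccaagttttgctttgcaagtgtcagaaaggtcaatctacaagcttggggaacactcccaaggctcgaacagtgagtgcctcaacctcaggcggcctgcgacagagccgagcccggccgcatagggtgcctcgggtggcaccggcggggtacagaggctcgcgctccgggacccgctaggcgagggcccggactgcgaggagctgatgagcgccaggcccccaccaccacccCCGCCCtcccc
Col7a1: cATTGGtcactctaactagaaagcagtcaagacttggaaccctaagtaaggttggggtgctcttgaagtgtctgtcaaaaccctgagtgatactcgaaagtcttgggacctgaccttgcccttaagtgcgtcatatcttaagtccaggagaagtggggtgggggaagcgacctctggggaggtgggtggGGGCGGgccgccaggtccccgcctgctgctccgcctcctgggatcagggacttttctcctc
Col3a1: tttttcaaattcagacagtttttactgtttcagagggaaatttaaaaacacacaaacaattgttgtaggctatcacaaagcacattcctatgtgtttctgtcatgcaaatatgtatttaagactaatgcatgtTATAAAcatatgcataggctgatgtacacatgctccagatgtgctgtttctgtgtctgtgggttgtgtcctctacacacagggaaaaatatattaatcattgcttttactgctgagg
Motifs were searched as fixed letters on both strands, and no motif contained another. The TATA box, searched as TATAAA, was found upstream of Col3a1 and Col11a2 among those shown, and in 5 of the 38 member windows (13.2%) against 12.4% of 32851 RefSeq windows of the same length. The GC box, searched as GGGCGG, was found in 22 member windows (57.9%) against 32.7% of all, and the median GC content was 59.0% against 52.4%. The CCAAT box, searched by the letters of its name, was found in 13 windows (34.2%) against 33.8% of all. The TCF/LEF motif, searched as CTTTGAT, was in the window of Col9a2 and in 3.21% of all windows. The AP-1 site, searched as TGACTCA, was in that of Col6a1 and in 4.46% of all windows. The cyclic AMP response element, searched as TGACGTCA, was in 0 member windows and in 1.55% of all. A match is only a string in this window.

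Type VI chains, which are made by fibroblasts and by Schwann cells, were highest in Sphere and lowest in FIBCL for Col6a1, Col6a2 and Col6a3. Col6a1 was at 1148, 1115 and 1098 scaled TPM in Sphere, 840, 903 and 914 in SCDM, 640, 672 and 607 in SCDM/FGF and 70.9, 68.2 and 64.6 in FIBCL. Col6a2 was at 644 to 687, 461 to 508, 261 to 283 and 19.9 to 21.7 in the same order. For both chains the 4 groups were apart, and FIBCL differed from SCDM by -3.69 for Col6a1 (SE 0.0504, limma, adjusted p = 2.59e-13) and by -4.48 for Col6a2 (SE 0.0494, limma, adjusted p = 5.53e-14). Between SCDM/FGF and Sphere, Col6a2 was called lower (-1.27) and Col6a1 was not (-0.81), although without rescaling the Col6a1 value was -1.04.

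Col6a3, whose long alpha 3 chain completes the classical type VI trimer, was lowered more than its partners in FIBCL. It was at 485, 475 and 466 scaled TPM in Sphere, 159, 194 and 195 in SCDM, 231, 198 and 202 in SCDM/FGF and 4.57, 4.29 and 4.74 in FIBCL. FIBCL differed from SCDM by -5.05 (SE 0.081, limma, adjusted p = 8.05e-13), and SCDM from Sphere by -1.38 (SE 0.081, limma, adjusted p = 9.89e-08). The alternative alpha chains Col6a5 and Col6a6 were low, with the highest group means in SCDM/FGF (3.10 ± 0.317 and 16.0 ± 4.61), and Col6a6 was at 0.0125 ± 0.000602 in FIBCL. Col6a6 was called higher with bFGF by 1.06 (limma, adjusted p = 0.000267), a call lost without SCDM replicate 1 (0.95), without SCDM/FGF replicate 1 (0.85) and without rescaling (0.99). Col6a5 was not called in FIBCL against SCDM (-0.97), and passed without FIBCL replicate 1 (-1.08) or SCDM replicate 3 (-1.06), without rescaling (-1.04) and with a pseudocount of 0.5 (-1.48) or 0.1 (-2.88). With bFGF its difference of 0.93 passed without SCDM replicate 2 (1.01) and with a pseudocount of 0.5 (1.12) or 0.1 (1.36).

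Both tested transmembrane collagens were lower in SCDM than in Sphere. Col23a1, a transmembrane collagen with a shed ectodomain, was at 87.7, 89.7 and 88.2 scaled TPM in Sphere, 94.2, 78.8 and 65.2 in SCDM/FGF, 24.7, 22.9 and 24.4 in FIBCL and 10.2, 9.49 and 8.85 in SCDM. Sphere and SCDM/FGF overlapped and SCDM was below every other library. SCDM differed from Sphere by -3.09 (SE 0.105, limma, adjusted p = 1.51e-09), and SCDM/FGF from SCDM by 2.92 (SE 0.105, limma, adjusted p = 2.02e-09). In FIBCL it was 1.25 above SCDM (SE 0.105, limma, adjusted p = 6.34e-07), a call lost without rescaling (0.87), and its difference from SCDM/FGF was -1.67 (limma, adjusted p = 5.48e-08). Col25a1, a neuronal transmembrane collagen needed for motor axon targeting in muscle, was at 28.2 to 31.7 in Sphere, 4.66 to 5.07 in SCDM, 2.57 to 3.49 in SCDM/FGF and 0.885 to 1.89 in FIBCL. Its lowest mean was in FIBCL, the group with the highest neuronal markers, a difference of -3.76 from Sphere (SE 0.146, limma, adjusted p = 8.99e-10). Col26a1, an extracellular matrix chain first described in testis and ovary, was at 146 to 154 in Sphere and was called lower in each of the 3 other groups, with 44.2 to 49.7 in SCDM, 26.1 to 34.3 in SCDM/FGF and 1.27 to 2.32 in FIBCL.

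Col7a1 and Col20a1 were the members called higher in FIBCL against all 3 other groups. Col7a1, which forms the anchoring fibrils under epithelia, had 23.2, 14.3 and 25.2 scaled TPM in FIBCL, 6.17, 6.58 and 6.07 in Sphere, 6.24, 5.85 and 6.72 in SCDM/FGF and 2.69, 1.50 and 1.62 in SCDM. FIBCL was above all other libraries, by 2.88 against SCDM (SE 0.195, limma, adjusted p = 9.55e-08), 1.56 against SCDM/FGF (limma, adjusted p = 2.18e-05) and 1.55 against Sphere (limma, adjusted p = 2.18e-05). Col20a1, a fibril-associated chain, had 5.29, 4.35 and 4.24 in FIBCL and 0.866 to 1.58 over the 9 other libraries. The differences were 1.38 against SCDM (SE 0.14, limma, adjusted p = 3.27e-06), 1.26 against SCDM/FGF (limma, adjusted p = 7.81e-06) and 1.42 against Sphere (limma, adjusted p = 2.78e-06). In none of these did a left-out library change the call, and even so both genes held only 3.99% and 0.88% of the collagen TPM of FIBCL. The 2 tested members not covered by the naming rule, Col22a1 and Col28a1, had group means of at most 4.34 scaled TPM.

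Chains that assemble in a fixed ratio were not present in a fixed ratio of transcripts. The type I trimer holds more alpha 1 than alpha 2 chains, whereas Col1a1 per Col1a2 was 0.789 ± 0.0816 in FIBCL against 0.0810 ± 0.00164 in Sphere, 0.0863 ± 0.0167 in SCDM/FGF and 0.116 ± 0.00809 in SCDM (SD, n = 3). The FIBCL libraries, at 0.731 to 0.882, lay above the highest other value of 0.125. Col4a1 per Col4a2 was 1.85 ± 0.00824 in Sphere, 1.76 ± 0.0735 in SCDM/FGF, 1.46 ± 0.0680 in SCDM and 0.864 ± 0.00947 in FIBCL, so that only in FIBCL was Col4a2 the more abundant chain. Col6a3 per Col6a1 was 0.424 ± 0.00192 in Sphere, 0.329 ± 0.0335 in SCDM/FGF, 0.206 ± 0.0145 in SCDM and 0.0669 ± 0.00573 in FIBCL, with no overlap. Col6a3 was low in FIBCL as well, at 3.48 to 3.82 TPM. The ratios do not depend on the scaling between libraries, and no test was made of them.

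Other ratios differed between SCDM and SCDM/FGF, with overlap in that of Col9a3 to Col9a2. Col5a1 per Col5a2 was 1.36 ± 0.0204 in SCDM and 2.72 ± 0.203 in SCDM/FGF, with 2.17 ± 0.0552 in Sphere and 1.06 ± 0.0986 in FIBCL. Col9a3 per Col9a2 was 2.47 ± 0.0688 in Sphere and 1.07 ± 0.113 in SCDM, against 0.468 ± 0.0477 in FIBCL and 0.737 ± 0.320 in SCDM/FGF, and the SCDM/FGF libraries spread from 0.457 to 1.09 and overlapped both other differentiated groups. Col8a1 per Col8a2 was 44.5 ± 8.18 in Sphere and 3.17 ± 0.250 in SCDM, and 49.7 and 136.8 in the 2 SCDM/FGF libraries with both chains at 1 TPM or more.

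**Figure D5:**
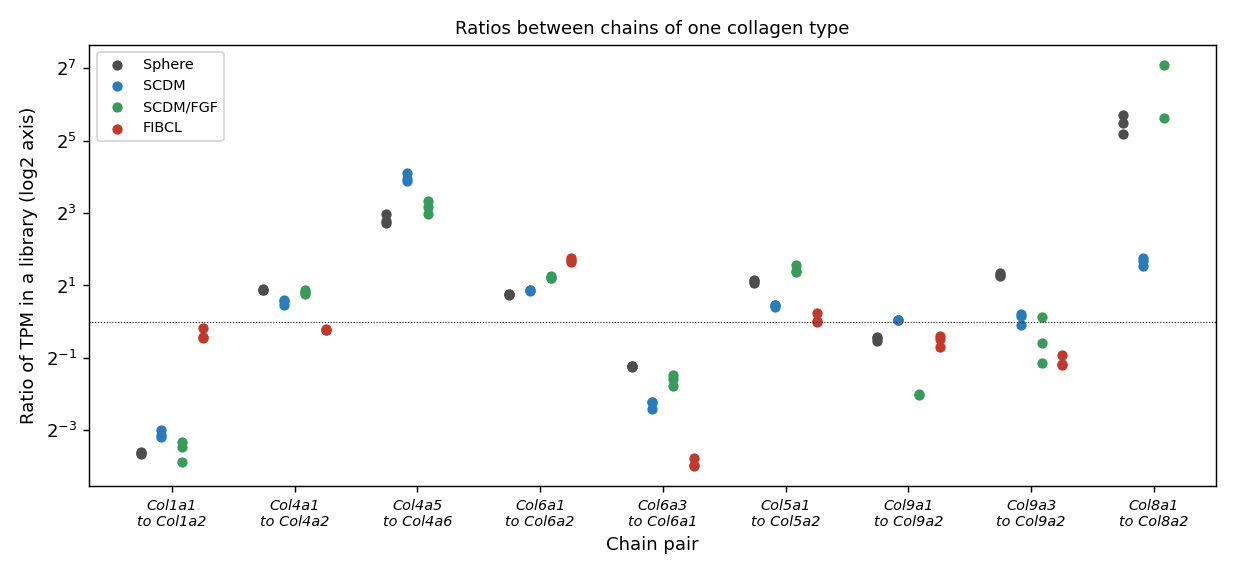
Ratio of TPM between chains of the same collagen type in each library (points, log2 axis, dotted line at equal levels), coloured by group, drawn only where both chains had at least 1 TPM. FIBCL stands highest for Col1a1 to Col1a2 (0.731 to 0.882) and lowest for Col4a1 to Col4a2 (0.857 to 0.875) and for Col6a3 to Col6a1 (0.0628 to 0.0735).

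The enzymes and chaperones that process collagen moved less than the chains. Of 38 assembly genes 36 were tested. In FIBCL against SCDM, 2 were called higher and 22 lower (13.2% and 16.2% of all genes). The median difference was -1.22 beside -3.29 for the chains. In SCDM against Sphere, 13 were called higher and 2 lower (6.94% and 5.46% of all genes), and in SCDM/FGF against SCDM, 1 higher and 3 lower (5.73% and 4.04%). Serpinh1, the collagen chaperone HSP47, was at 2441 ± 12.7 scaled TPM in SCDM, 1196 ± 68.0 in SCDM/FGF, 1135 ± 10.2 in Sphere and 387 ± 7.96 in FIBCL. Lox, which cross-links fibrils, was at 936 ± 85.0 in SCDM and 19.1 ± 0.874 in FIBCL, a difference of -5.54 (limma, adjusted p = 4.17e-13). Pcolce, the enhancer of procollagen C-proteinase, was at 826 ± 40.5 in SCDM and 48.8 ± 0.309 in FIBCL, a difference of -4.05 (limma, adjusted p = 4.46e-14). P4ha1, the catalytic subunit of prolyl hydroxylase, differed by -2.54 between FIBCL and SCDM (limma, adjusted p = 2.99e-12).

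Among the assembly genes, Bmp1 and Loxl2 were called higher in FIBCL than in SCDM. Bmp1, the procollagen C-proteinase itself, was at 424 ± 11.0 scaled TPM in FIBCL, 161 ± 14.4 in SCDM/FGF, 146 ± 11.8 in Sphere and 92.4 ± 1.28 in SCDM, a difference of 2.19 from SCDM (limma, adjusted p = 1.33e-10). Loxl2, a lysyl oxidase of type IV collagen, was at 297 ± 20.4 in FIBCL, 235 ± 4.27 in SCDM/FGF, 123 ± 3.41 in SCDM and 12.5 ± 0.672 in Sphere. Its difference from SCDM was 1.27 (limma, adjusted p = 1.62e-09). Without rescaling, Loxl2 was at 211 to 265 TPM in FIBCL and 125 to 133 in SCDM, a mean difference below the threshold. With bFGF, Adamts14, a procollagen N-proteinase, was higher by 1.63 (limma, adjusted p = 9.44e-08), while Adamts2, with the same activity, had a difference of -1.91 (limma, adjusted p = 2.02e-07).

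Collagen receptors were mostly called lower in FIBCL than in SCDM. Of 11 receptors 10 were tested. In FIBCL against SCDM 1 was called higher and 8 lower (13.2% and 16.2% of all genes), while against Sphere 1 was higher and 5 lower (12.5% and 15.5%). Their summed level was nevertheless highest in FIBCL, at 1156 to 1242 scaled TPM against 854 to 898 in SCDM, with Itgb1 as the main part. The gene called higher was Itgb1, the beta 1 subunit shared by all collagen-binding integrins and by laminin receptors. It was at 508 ± 5.93 scaled TPM in SCDM against 1021 ± 37.2 in FIBCL (1.01, limma, adjusted p = 2.22e-09). Without rescaling, Itgb1 was at 778 to 884 TPM in FIBCL and 532 to 543 in SCDM, a difference below the threshold. Its fibrillar collagen partner Itga11 was at 35.0 ± 2.46 in SCDM, 6.29 ± 0.124 in Sphere, 6.24 ± 1.96 in SCDM/FGF and 1.58 ± 0.179 in FIBCL. With bFGF its difference was -2.35 (limma, adjusted p = 2.92e-07). Itga10, a receptor found on cartilage cells, was the receptor called higher with bFGF, by 1.68 (limma, adjusted p = 2.9e-07). Its highest level was in Sphere (31.3 ± 1.95), with 15.5 ± 2.12 in SCDM/FGF, 4.14 ± 0.337 in SCDM and 0.748 ± 0.176 in FIBCL.

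Fibroblast markers did not all follow the chains. In FIBCL against SCDM, 10 of 15 were called lower and 2 higher (16.2% and 13.2% of all genes). The matrix gene Dcn, encoding decorin, was at 536 ± 77.8 scaled TPM in SCDM and 2.70 ± 0.347 in FIBCL, and Postn, encoding periostin, at 1724 ± 70.6 and 0.626 ± 0.121. The transcription factors Prrx1 and Twist1 were called higher, at 60.7 ± 1.88 in FIBCL against 15.8 ± 1.05 in SCDM and at 109.9 ± 8.17 against 48.2 ± 5.64. Without rescaling, Twist1 was at 84.1 to 91.8 TPM in FIBCL and 45.4 to 56.4 in SCDM, a mean difference below the threshold. In SCDM/FGF against SCDM 3 were higher and 3 lower (5.73% and 4.04% of all genes), with Dcn at 1436 ± 116 and Postn at 193 ± 35.5 in SCDM/FGF. Dcn was called higher with bFGF by 1.43 (limma, adjusted p = 4.63e-07) and Postn lower, with a difference of -3.17 (limma, adjusted p = 1.37e-09). The part of these cells in the collagen results was not tested.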

How the data were processed

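Poly(A)-selected RNA of 12 libraries in 4 groups was sequenced as read pairs. Per the study's methods reads were trimmed with SeqPrep and Sickle and genes quantified with RSEM, and the submitters' processing notes also name TopHat and Cufflinks. Versions and genome build are not given in the sources used here. The deposited table holds TPM per gene and library, with no counts, so depth is unknown and no count test was run. Listed TPM summed to 899295 to 994845 per library, with 21625 to 22281 genes above 0, and the FIBCL columns are headed FIBC.

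Each library was rescaled by a trimmed mean (30% at each end) of log2 ratios over 8434 genes with at least 5 TPM throughout. Mean log2 offsets were 0.23 (Sphere), 0.08 (SCDM), -0.00 (SCDM/FGF) and -0.32 (FIBCL). limma 3.58.1 (R 4.3.3, mean-variance trend) was fitted to log2(scaled TPM + 1) of the 16016 genes that reached 1 TPM in 3 or more libraries, with Benjamini-Hochberg adjustment within each of 6 comparisons, and was tested on simulated data. The study's own count-based test needs reads and was not used here. Members were named by level (a group mean of at least 10 scaled TPM), by a call higher in FIBCL, by the 5 largest called differences in each direction, or as type IV chains, and other pathway genes where called with a difference of at least 2 or called higher in FIBCL than in SCDM. Members and lists were chosen with earlier results of these data known. Alternatives covered the pseudocount, filter, scaling, threshold, samples fitted, prior variance, a replicate block and leaving out libraries. Promoter sequences and their windows are from RefSeq (GRCm38.p6), and Col1a1, Col2a1, Col4a3, Col5a2, Col9a3, Col12a1, Col14a1, Col22a1 and Col26a1 had no entry.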

Additional observations from a re-analysis of the deposited data

How the results depend on the processing

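Over 234 pairs of member and comparison, 4878 values were recomputed. Of these, 4821 stayed called or uncalled as before, 15 lost a call, 42 gained one and 0 calls changed direction. The direction of values called in neither fit was not compared. Leaving out 1 library at a time gave 3 members higher and 29 to 30 lower in FIBCL against SCDM, 2 to 4 and 25 against SCDM/FGF, and 2 and 30 to 31 against Sphere. It gave 14 to 15 and 9 to 11 in SCDM against Sphere, 4 to 6 and 10 to 11 in SCDM/FGF against Sphere, and 5 to 7 and 16 in SCDM/FGF against SCDM. With a minimum difference of 1.5 on the log2 scale, 1 member was higher in FIBCL against each of the other groups, 4 were lower in SCDM and 3 higher in SCDM/FGF against Sphere, and 2 higher in SCDM/FGF against SCDM, where 6.97 to 7.89%, 2.42%, 4.12% and 2.88% of all genes passed. With the adjusted p alone, 16 were lower in SCDM, 12 higher and 19 lower in SCDM/FGF against Sphere, and 11 higher in SCDM/FGF against SCDM, where 21.8 to 25.8% of all genes passed. A filter of 5 TPM left 1 member higher in FIBCL against Sphere. With scaled in place of deposited TPM, over a fixed total, the collagen share was 0.743% in Sphere, 1.66% in SCDM and 0.0524% in FIBCL. Col1a1 per Col1a2 was 0.882 in FIBCL replicate 1, the only library of that group where both chains reached 5 TPM. The cause of these shifts was not tested. Same-numbered libraries of different groups did not deviate together from their group means: of 18 such pairs 0 correlated above 0.1 (-0.12 to 0.10). This cannot show whether they shared a preparation. With the replicate block, 3 members were higher and 29 lower in FIBCL against SCDM, and none of the 234 calls changed. With TPM alone, no counting error can be given for low chains.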
